A study of Mus musculus with 47 samples.

Results

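The homeostatic microglia genes described here are P2ry12, P2ry13, Gpr34, Cx3cr1, Csf1r, Tmem119, Siglech, Fcrls and Sall1. They were found by gene symbol and Ensembl identifier in the male and the female count table, and all 9 of the 9 were present among the 55416 gene identifiers of each table. Microglia are the resident macrophages of the brain. In the healthy brain they carry purinergic, chemokine and cytokine receptors with which they sense ATP, neurons and their own survival factors, and this set of genes is used to recognise surveying microglia and is known to fall when microglia take on a disease-associated state. Microglial density and gene expression are also known to differ between brain regions.

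Brain RNA was sequenced in both sexes of the 3xTg mouse, a model of Alzheimer's disease (AD) that carries human APP and tau transgenes driven by a neuronal promoter. From 6 months of age the mice were fed for 9 months an amino acid-defined Control diet or 1 of 3 restricted diets. IleR was low in isoleucine, LeuR was low in leucine and ValR was low in valine. All groups share the 3xTg genotype, and wild-type libraries were not analysed here. In males, 4 libraries were from Control, 3 from IleR, 3 from LeuR and 4 from ValR mice, in females 6, 5, 6 and 6 in the same order, and 10 further male libraries in the labels were not analysed here. Libraries are named by diet and label number, as in Control 4. The labels mention no repeat library of a mouse, and the p-values measure the spread between these libraries. The question addressed is whether the restriction of a single branched-chain amino acid changed the expression of these genes in each sex.

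Library depth, as the sum of the counts, lay between 12682687 and 25722333 in males and between 10672599 and 21370973 in females, and the members had between 60 and 2311 counts in a male library and between 44 and 1735 in a female library. To describe regional content, each library was given a hindbrain score, the average of the mean log2 CPM (the counts of a gene scaled to a common library size) of 12 cerebellum and 14 brainstem and spinal cord genes, minus the mean log2 CPM of 16 forebrain genes. The summed level of the 14 brainstem and spinal cord genes was as low as 2.72 CPM in male Control and 3.18 CPM in female Control. At such levels log2 CPM depends on the small count added before the logarithm, and 7 of the 14 passed the filter for testing in females. In males the score ran from -8.52 to -5.26 in Control, from 0.35 to 2.52 in IleR, from -4.58 to 2.45 in LeuR and from 2.62 to 3.49 in ValR, so that no restricted library overlapped Control. In females the scores of the 4 diets overlapped, from -8.55 to -0.61 in Control, from -8.14 to -1.51 in IleR, from -7.94 to 2.97 in LeuR and from -7.78 to -0.67 in ValR. Diet and regional content therefore cannot be told apart in males. The male library LeuR 19 stood apart by a summed level of 291 CPM over 8 monocyte and granulocyte markers, against 1.78 to 18.9 CPM in the other male libraries, and its part in the results was tested by leaving it out.

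Of the 9 genes, 6 have a promoter window in the RefSeq set for GRCm38.p6. The 250 bases before the RefSeq start site are shown for P2ry12 and P2ry13, which lie side by side on chromosome 3, and for Siglech and Fcrls, which had unlike patterns over the diets. These start sites can differ from the gene positions given in the next paragraph, and the Fcrls window lies partly within the gene as placed there. Capitals mark GGAA or its reverse complement TTCC, the core letters bound by ETS factors such as the myeloid factor PU.1.
P2ry12 (GRCm38.p6, chr3:59262986-59263235, minus strand): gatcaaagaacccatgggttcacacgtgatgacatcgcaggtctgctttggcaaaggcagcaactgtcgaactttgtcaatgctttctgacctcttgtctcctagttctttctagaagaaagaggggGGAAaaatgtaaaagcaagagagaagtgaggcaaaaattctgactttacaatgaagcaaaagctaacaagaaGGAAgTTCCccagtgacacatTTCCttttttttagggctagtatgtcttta
P2ry13 (GRCm38.p6, chr3:59210883-59211132, minus strand): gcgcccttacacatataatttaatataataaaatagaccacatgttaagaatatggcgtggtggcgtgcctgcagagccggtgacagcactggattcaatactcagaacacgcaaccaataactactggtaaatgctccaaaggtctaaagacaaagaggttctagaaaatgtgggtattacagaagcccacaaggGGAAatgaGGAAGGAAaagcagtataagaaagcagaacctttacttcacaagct
Siglech (GRCm38.p6, chr7:55767934-55768183, plus strand): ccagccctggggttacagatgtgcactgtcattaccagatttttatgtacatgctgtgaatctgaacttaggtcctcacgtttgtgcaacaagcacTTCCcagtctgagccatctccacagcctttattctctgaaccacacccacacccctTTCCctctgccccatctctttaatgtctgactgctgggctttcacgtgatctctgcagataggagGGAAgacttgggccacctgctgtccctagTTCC
Fcrls (GRCm38.p6, chr3:87263525-87263774, minus strand): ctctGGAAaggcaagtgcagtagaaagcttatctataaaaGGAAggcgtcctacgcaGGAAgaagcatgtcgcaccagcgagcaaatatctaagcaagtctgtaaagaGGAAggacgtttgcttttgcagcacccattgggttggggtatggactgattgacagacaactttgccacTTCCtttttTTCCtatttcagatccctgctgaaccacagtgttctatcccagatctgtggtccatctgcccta
Counted on both strands, GGAA occurred 4 times in the window of P2ry12, 3 times in that of P2ry13, 4 times in that of Siglech and 6 times in that of Fcrls. The 6 genes have 8 windows in all, of which 7 held GGAA, and 93.4% of the 32851 promoter windows of this length hold it. The longer GAGGAA, which contains GGAA and was also counted as TTCCTC, was found in 2 of the 8 windows, those of P2ry13 and Fcrls, and in 23.3% of all windows. These matches are a description of the letters and show no binding.

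In the GRCm38 annotation (GENCODE M21) the 9 genes are protein-coding. P2ry12 lies at chr3:59216272-59262871 and P2ry13 at chr3:59207892-59210882, both on the minus strand within the gene Med12l of the opposite strand, with which they share 9 and 0 exonic bases. Gpr34 lies at chrX:13632089-13640858, Cx3cr1 at chr9:119901616-120069879, Csf1r at chr18:61100598-61132149, Tmem119 at chr5:113793729-113800516, Siglech at chr7:55768178-55778925, Fcrls at chr3:87250758-87263738 and Sall1 at chr8:89027235-89044162. Csf1r shares 873 exonic bases, 15.12% of its exonic length, with Hmgxb3 on the opposite strand, and its counts are uncertain to that degree because a strand setting of the counting is not given in the sources used here. The methods name a stranded library kit, but not whether the counting used the strand.

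The members differed in level. On the scale of CPM divided by exonic length in kilobases, Csf1r was the highest in Control-fed males at 20.7 ± 1.51 CPM per kb (SD, n = 4), followed by Cx3cr1 at 11.9, P2ry12 at 10.1, Tmem119 at 8.41, Fcrls at 7.43, Sall1 at 5.45, Gpr34 at 4.63, P2ry13 at 4.48 and Siglech at 3.50 CPM per kb. Only Csf1r was separated from the next gene in this order, since the libraries of all other neighbours overlapped. In ValR-fed males Csf1r was again first at 13.2 CPM per kb and separated from Cx3cr1 at 7.45, while P2ry12 stood sixth at 3.49, after Fcrls at 5.45, Sall1 at 4.21 and Tmem119 at 3.56 CPM per kb. In Control-fed females the order began with Csf1r at 13.9, P2ry12 at 10.3 and Cx3cr1 at 8.95 CPM per kb and ended with Siglech at 2.52, and all neighbours overlapped.

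**Figure D1:**
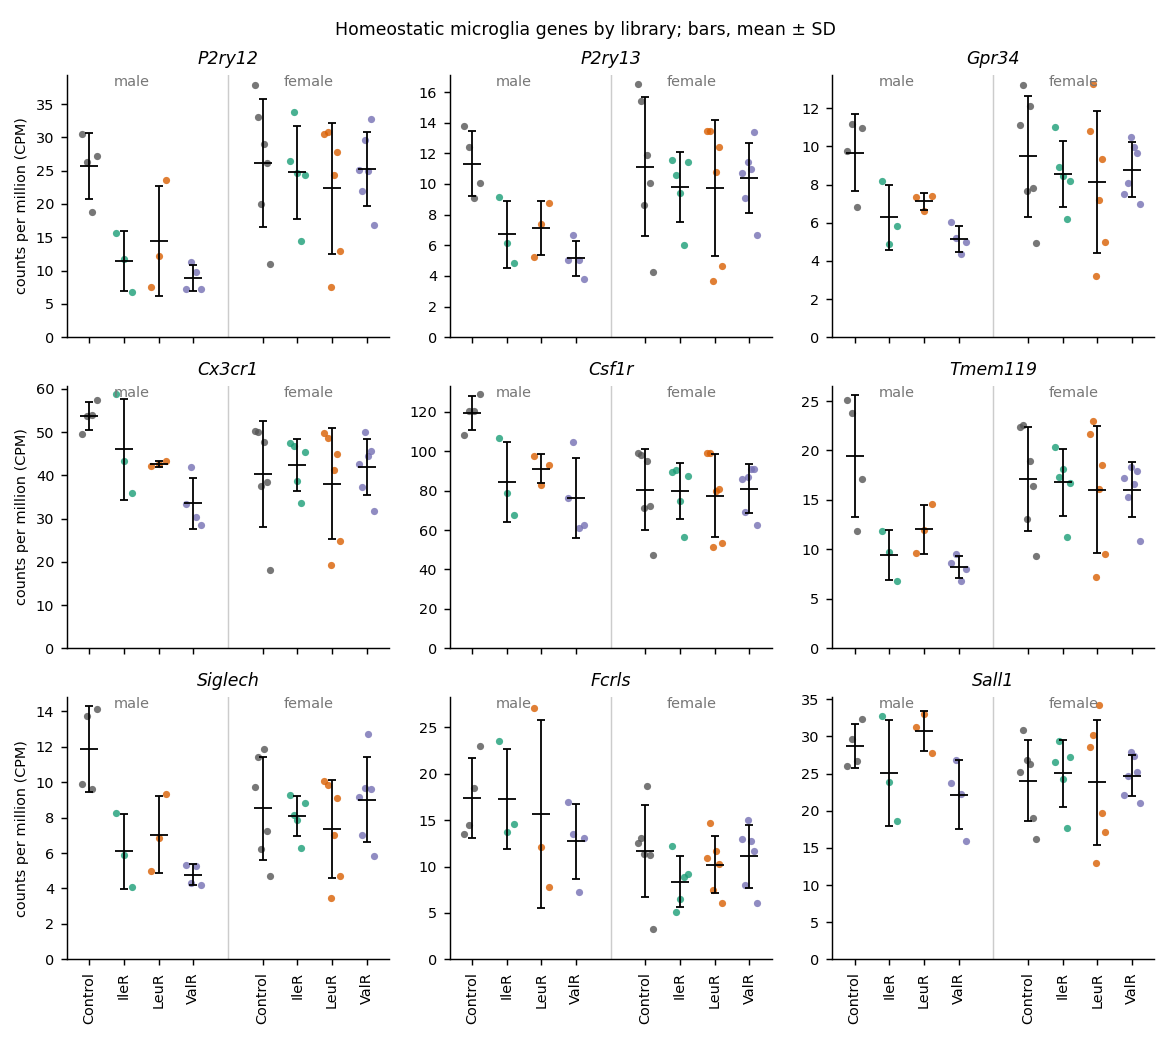
The level of each of the 9 genes in every library, in CPM on a linear axis from 0, by diet and sex. Each point is a library, and the bars give the mean ± SD of a diet. In males the ValR libraries of 7 genes lie below all 4 Control libraries, and in females the diets overlap for all 9 genes.

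The purinergic receptor gene P2ry12, which encodes the ADP receptor that guides microglial processes towards damage, was lower in restricted males. Its level was 30.6, 26.3, 18.8 and 27.2 CPM in the male Control libraries 1, 3, 4 and 5, 15.7, 11.8 and 6.81 CPM in IleR 13, 14 and 17, 7.48, 12.2 and 23.6 CPM in LeuR 19, 20 and 21, and 7.27, 11.3, 9.79 and 7.20 CPM in ValR 7, 9, 10 and 12. All IleR and ValR libraries were below the lowest Control library, while LeuR 21 lay among the Control libraries. With edgeR's quasi-likelihood test, in which p-values were adjusted over all 22197 genes tested and called at 0.05, P2ry12 fell in ValR-fed males, with a log2 difference of -1.53 (SE 0.33, 95% interval -2.24 to -0.82, adjusted p = 0.00459), a level 2.89-fold lower than Control. It also fell in IleR-fed males, with a log2 difference of -1.17 (SE 0.36, adjusted p = 0.0417). In LeuR-fed males the log2 difference was -0.83 (adjusted p = 0.147). In bulk RNA, fewer microglia and less RNA per microglial cell cannot be told apart, here and below.

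P2ry13, a further ADP receptor, and Gpr34, a receptor for lysophosphatidylserine, fell in ValR-fed males and did not pass the test in the other male diets. P2ry13 was at 13.8, 12.4, 9.10 and 10.1 CPM in the male Control libraries, 9.13, 6.14 and 4.86 CPM in IleR, 5.24, 7.38 and 8.75 CPM in LeuR and 5.04, 6.67, 5.01 and 3.82 CPM in ValR. All ValR and LeuR libraries were below Control, and IleR 13 reached the lowest Control library. Its log2 difference from Control was -1.14 in ValR (SE 0.24, adjusted p = 0.00422), -0.76 in IleR (adjusted p = 0.0666) and -0.67 in LeuR (adjusted p = 0.115). Gpr34 was at 9.74, 11.2, 6.81 and 11.0 CPM in the male Control libraries and at 6.05, 5.19, 4.36 and 4.97 CPM in ValR, where all libraries were below Control. For Gpr34 the log2 difference was -0.91 in ValR (SE 0.20, adjusted p = 0.00509), -0.63 in IleR (adjusted p = 0.0669) and -0.44 in LeuR (adjusted p = 0.205).

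Among the chemokine and cytokine receptors, Cx3cr1, the receptor for neuronal fractalkine, and Csf1r, the receptor on which microglial survival depends, fell in ValR-fed males, and neither passed the test in IleR or LeuR. Cx3cr1 was at 49.5, 53.7, 53.9 and 57.5 CPM in the male Control libraries, 58.7, 43.4 and 35.9 CPM in IleR, 42.1, 42.6 and 43.4 CPM in LeuR and 33.5, 41.9, 30.3 and 28.5 CPM in ValR. IleR 13 was above all Control libraries, while the LeuR and ValR libraries were below them. For Cx3cr1 the log2 difference was -0.68 in ValR (SE 0.14, adjusted p = 0.00424), -0.22 in IleR (adjusted p = 0.373) and -0.33 in LeuR (adjusted p = 0.192). Csf1r was at 108, 120, 121 and 129 CPM in the male Control libraries, 107, 79.0 and 67.5 CPM in IleR, 97.5, 82.8 and 93.1 CPM in LeuR and 76.3, 105, 61.1 and 62.3 CPM in ValR. Every restricted library was below the lowest Control library, IleR 13 and ValR 9 by little. The log2 difference of Csf1r was -0.65 in ValR (SE 0.17, adjusted p = 0.0140), -0.50 in IleR (adjusted p = 0.0859) and -0.39 in LeuR (adjusted p = 0.193).

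Of the surface proteins, Tmem119, a transmembrane protein used to tell microglia from other macrophages, and Siglech, a sialic acid-binding lectin, fell in ValR-fed and IleR-fed males. Tmem119 was at 25.1, 23.8, 11.8 and 17.2 CPM in the male Control libraries, 11.9, 9.76 and 6.81 CPM in IleR, 9.62, 11.9 and 14.6 CPM in LeuR and 8.64, 9.51, 6.84 and 8.03 CPM in ValR. Control 4 was the lowest Control library and overlapped IleR and LeuR but not ValR. The log2 difference of Tmem119 was -1.24 in ValR (SE 0.24, adjusted p = 0.00245), -1.04 in IleR (SE 0.26, adjusted p = 0.0173) and -0.69 in LeuR (adjusted p = 0.103). Siglech was at 9.87, 13.7, 9.61 and 14.1 CPM in the male Control libraries, 8.26, 5.91 and 4.09 CPM in IleR, 4.97, 6.84 and 9.31 CPM in LeuR and 5.33, 4.31, 5.25 and 4.21 CPM in ValR. All restricted libraries were below Control. The log2 difference of Siglech was -1.31 in ValR (SE 0.25, adjusted p = 0.00192), a level 2.48-fold lower, -0.96 in IleR (SE 0.27, adjusted p = 0.0267) and -0.75 in LeuR (SE 0.26, adjusted p = 0.0853).

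Fcrls, an Fc receptor-like scavenger receptor of mouse microglia, and Sall1, a transcription factor that maintains microglial identity, did not pass the test in any diet. Fcrls was at 13.5, 14.5, 18.5 and 23.0 CPM in the male Control libraries, 23.5, 13.8 and 14.6 CPM in IleR, 27.1, 12.1 and 7.79 CPM in LeuR and 17.0, 13.5, 7.25 and 13.1 CPM in ValR. The highest and one of the lowest male libraries, LeuR 19 and LeuR 21, were of the same diet. The log2 difference of Fcrls was -0.45 in ValR (95% interval -1.22 to 0.31, adjusted p = 0.404), -0.01 in IleR and -0.14 in LeuR. Sall1 was at 26.0, 29.7, 26.7 and 32.4 CPM in the male Control libraries and at 23.8, 26.8, 22.2 and 15.9 CPM in ValR, where ValR 9 overlapped Control. The log2 difference of Sall1 was -0.37 in ValR (95% interval -0.75 to 0.01, adjusted p = 0.148), -0.20 in IleR and 0.10 in LeuR.

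In total 7 of the 9 genes fell in ValR-fed males, where 12.4% of all genes tested were called lower, and the 7 were also those whose ValR libraries all lay below Control, which held for 13.6% of all genes. The same 7 genes were called with each of the 14 male libraries left out in turn, and with DESeq2 and limma voom. In IleR-fed males 3 of the 9 fell, P2ry12, Siglech and Tmem119, with 8.68% of all genes called lower. The IleR libraries of P2ry12, Siglech and Csf1r lay below Control without overlap, as did those of 14.5% of all genes. The IleR calls rested on single libraries: 0 genes were called without Control 3, IleR 14 or IleR 17, 1 without Control 1 (Siglech) or Control 5 (Tmem119), 2 without ValR 7 or ValR 10 (Siglech and Tmem119), 4 without ValR 9 (Csf1r added), 5 without Control 4 and 6 without IleR 13. In LeuR-fed males 0 of the 9 were called, with 6.33% of all genes called lower, while 4 had an unadjusted p under 0.05, as did 6003 of the 22197 genes tested, and 4 lay below Control without overlap, which 9.48% of all genes did. Beside this count of 0 by edgeR, DESeq2 called 1 gene (Siglech) and limma voom 0, and edgeR called Tmem119 without Control 4, P2ry12 and Siglech without LeuR 21, and 0 without LeuR 19. The median log2 difference over the 9 genes was -0.91 in ValR, -0.63 in IleR and -0.44 in LeuR, beside medians of 0.03, 0.04 and 0.05 over all genes, and the 3 comparisons share the Control libraries.

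**Figure D2:**
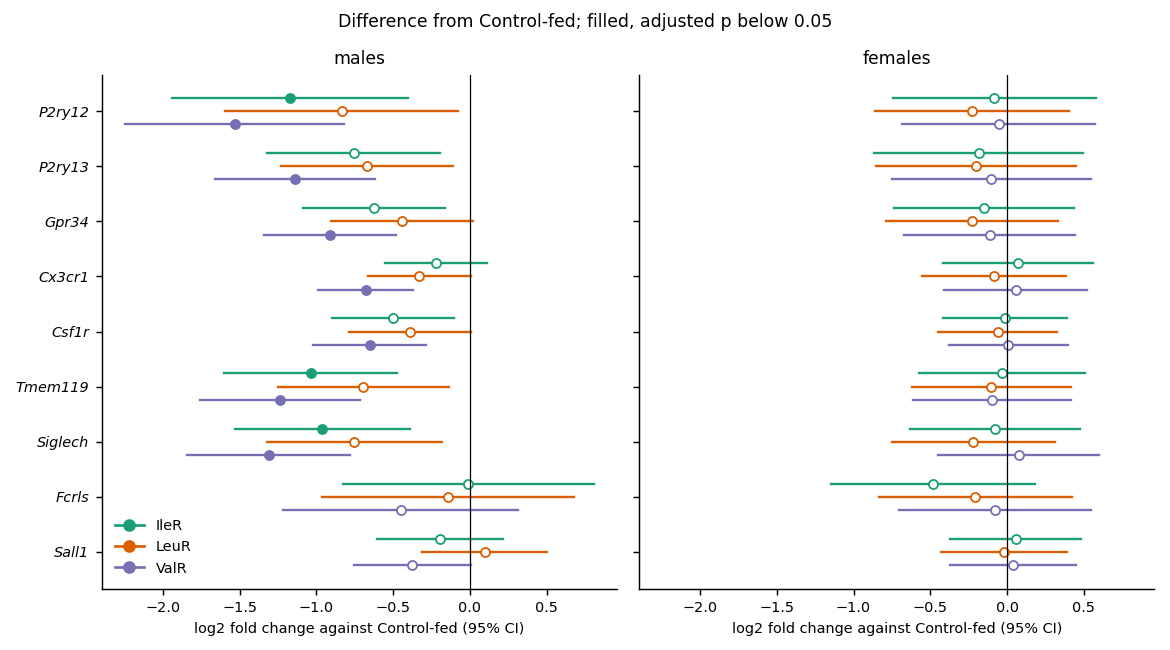
The log2 difference from Control of each of the 9 genes in each restricted diet, in males and in females, with 95% intervals from edgeR's fit. Filled points passed an adjusted p of 0.05. The male ValR points run from -1.53 to -0.37, and the female points from -0.48 to 0.07.

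The restricted diets were also compared with each other. In males, edgeR called 0 of the 9 genes and 0% of all genes between IleR and LeuR, 0 of the 9 and 2.75% of all genes between ValR and LeuR, and 0 of the 9 and 0% between ValR and IleR. At an unadjusted p under 0.05 these comparisons held 0, 3 and 1 of the 9 genes, among 2512, 5294 and 628 of the 22197 genes tested, and DESeq2 and limma voom also called 0. The smallest unadjusted p between ValR and IleR was that of Cx3cr1, whose log2 difference was -0.46 (edgeR adjusted p = 1). Between ValR and LeuR the log2 differences of the 9 genes ran from -0.70 to -0.26, with a lowest adjusted p of 0.151 for Sall1. In females edgeR called 0 of the 9 genes and 0% of all genes in each of the 3 comparisons, with 0 members at an unadjusted p under 0.05, among 1250 genes in all between IleR and LeuR, 1014 between ValR and LeuR and 847 between ValR and IleR, and DESeq2 and limma voom called 0.

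Females showed no called difference from Control. P2ry12 was at 10.9, 27.5 and 37.9 CPM (lowest, median and highest) in the 6 female Control libraries, at 26.4, 33.8, 24.6, 14.4 and 24.4 CPM in IleR 38 to 42, at 7.54, 26.1 and 30.8 CPM in the 6 LeuR libraries and at 16.9, 25.0 and 32.8 CPM in the 6 ValR libraries. Siglech was at 4.72, 8.48 and 11.8 CPM in Control, between 6.31 and 9.28 CPM in IleR, at 3.46, 8.04 and 10.0 CPM in LeuR and at 5.85, 9.38 and 12.7 CPM in ValR. Cx3cr1 was at 18.2, 43.1 and 50.2 CPM in Control and at 31.7, 43.5 and 50.1 CPM in ValR. The diets overlapped for all 9 genes, and the low ends were held by the same libraries in several genes: Control 30, LeuR 45 and LeuR 48 were the lowest 3 of the 23 female libraries for 8 of the 9 genes, and their hindbrain scores were -0.61, 2.97 and -0.87.

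With edgeR's test, 0 of the 9 genes and 0% of the 20344 genes tested were called in IleR-fed, LeuR-fed and ValR-fed females. At an unadjusted p under 0.05 there were 0 members in each diet, among 577, 820 and 777 genes in all, and DESeq2 and limma voom called 0 members. The log2 differences of the 9 genes ran from -0.48 to 0.07 over the 3 diets, and the 95% intervals reached from -1.15 to 0.60. The largest in size was that of Fcrls in IleR, at -0.48 (95% interval -1.15 to 0.18). The median over the 9 genes was -0.08 in IleR, -0.20 in LeuR and -0.05 in ValR, beside -0.01, 0.00 and -0.01 over all genes.

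The difference between the sexes was tested in a model of all 37 libraries, as the male log2 difference from Control minus the female one. Under ValR it was called for 1 of the 9 genes, Siglech, at -1.40 (SE 0.38, 95% interval -2.18 to -0.62, edgeR adjusted p = 0.0361), with 3.57% of all genes called in this direction. P2ry12 differed by -1.49 (adjusted p = 0.0634) and Tmem119 by -1.15 (adjusted p = 0.0662), and 7 of the 9 genes had an unadjusted p under 0.05, as did 5835 of the 22465 genes tested. DESeq2 called 3 genes (P2ry12, Siglech and Tmem119) and limma voom 0. The call of Siglech was lost without any of the male libraries Control 1, Control 3, Control 5, ValR 7, ValR 9, ValR 10 and ValR 12 or the female libraries Control 27, Control 29, Control 30, ValR 33, ValR 34 and ValR 35. The count rose to 2 without female Control 25 or Control 26, and to 3 without male Control 4, female LeuR 45 or female ValR 36. Under IleR edgeR called 0 of the 9 genes, with 0.0979% of all genes called in this direction, and under LeuR 0 of the 9, with 0% of all genes in this direction. At an unadjusted p under 0.05 there were 3 members under IleR and 0 under LeuR, among 4280 and 2911 of the 22465 genes, and DESeq2 and limma voom called 0 in both.

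Regional content moved with these genes. In females, where the diets overlap in the hindbrain score, the slope of log2 expression on the score was fitted with diet in the model, and all 9 genes had a lower level at a higher score, with 23.9% of all genes called in this direction. The slope of P2ry13 was -0.17 log2 units per unit of score (edgeR adjusted p = 2.83e-08) and that of P2ry12 was -0.16 (adjusted p = 1.54e-08). Gpr34 had -0.14, Tmem119 and Siglech -0.13, Cx3cr1 -0.12, Fcrls -0.10 (adjusted p = 0.00681), and Csf1r and Sall1 -0.09. The median slope was -0.13 over the 9 genes and -0.00 over all genes, and all 9 were called with each of the 23 female libraries left out in turn. In males, within diets, the slope was called for P2ry12 alone, at -0.23 (adjusted p = 0.0375), with 0.915% of all genes called lower. This call was lost in 10 of the 14 fits that left out a male library, namely without any Control or LeuR library, IleR 13, ValR 7 or ValR 10. The male slope of Fcrls was 0.17 and did not pass the test.

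Across the 23 female libraries, Pearson's r of log2 CPM with the hindbrain score was -0.94 for P2ry12, -0.93 for P2ry13, -0.93 for Tmem119, -0.92 for Gpr34 and Csf1r, -0.91 for Cx3cr1, -0.88 for Siglech, -0.85 for Sall1 and -0.59 for Fcrls. Spearman's rho ran from -0.93 for Cx3cr1 to -0.59 for Fcrls. The permutation p of r was 1e-05, the smallest the permutations can give, for 8 genes (adjusted p = 2.25e-05) and 0.00356 for Fcrls (adjusted p = 0.00641), adjusted over the 18 relations computed with this score. Without the 2 libraries farthest from the median score, r ran from -0.91 for Cx3cr1 to -0.51 for Fcrls. In males the Control and restricted libraries form separate clusters on the score. The 10 restricted libraries were pooled without a diet term, so that differences between their diets enter r. It was -0.82 for P2ry12 (adjusted permutation p = 0.0106), -0.81 for Tmem119 (0.00352), -0.79 for Siglech (0.00885) and -0.72 for P2ry13 (0.0181), and missed the threshold for the other 5 genes, from -0.61 for Gpr34 to 0.31 for Fcrls. Spearman's rho for P2ry12, Tmem119, Siglech and P2ry13 was -0.54, -0.70, -0.50 and -0.60, with adjusted permutation p of 0.137, 0.0448, 0.162 and 0.0947. Of the other 5 genes, rho passed for Cx3cr1 at -0.75 (adjusted permutation p = 0.0302) and Gpr34 at -0.73 (0.0332). Without the 2 farthest libraries r was -0.52 for P2ry12, -0.56 for Tmem119, -0.53 for Siglech and -0.65 for P2ry13. For these 4 genes the relation rested in part on those libraries, while r became more negative for Gpr34 (-0.69), Cx3cr1 (-0.77), Csf1r (-0.51) and Fcrls (-0.57), so that all 9 genes lay between -0.77 and -0.37. The relations were also computed on other scores. On cerebellum minus forebrain in restricted males, rho passed for all genes but Siglech (adjusted permutation p = 0.0524) and Fcrls (0.811). On brainstem minus forebrain no gene passed by r or rho in these males, with a lowest adjusted permutation p of 0.061 for P2ry12.

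**Figure D3:**
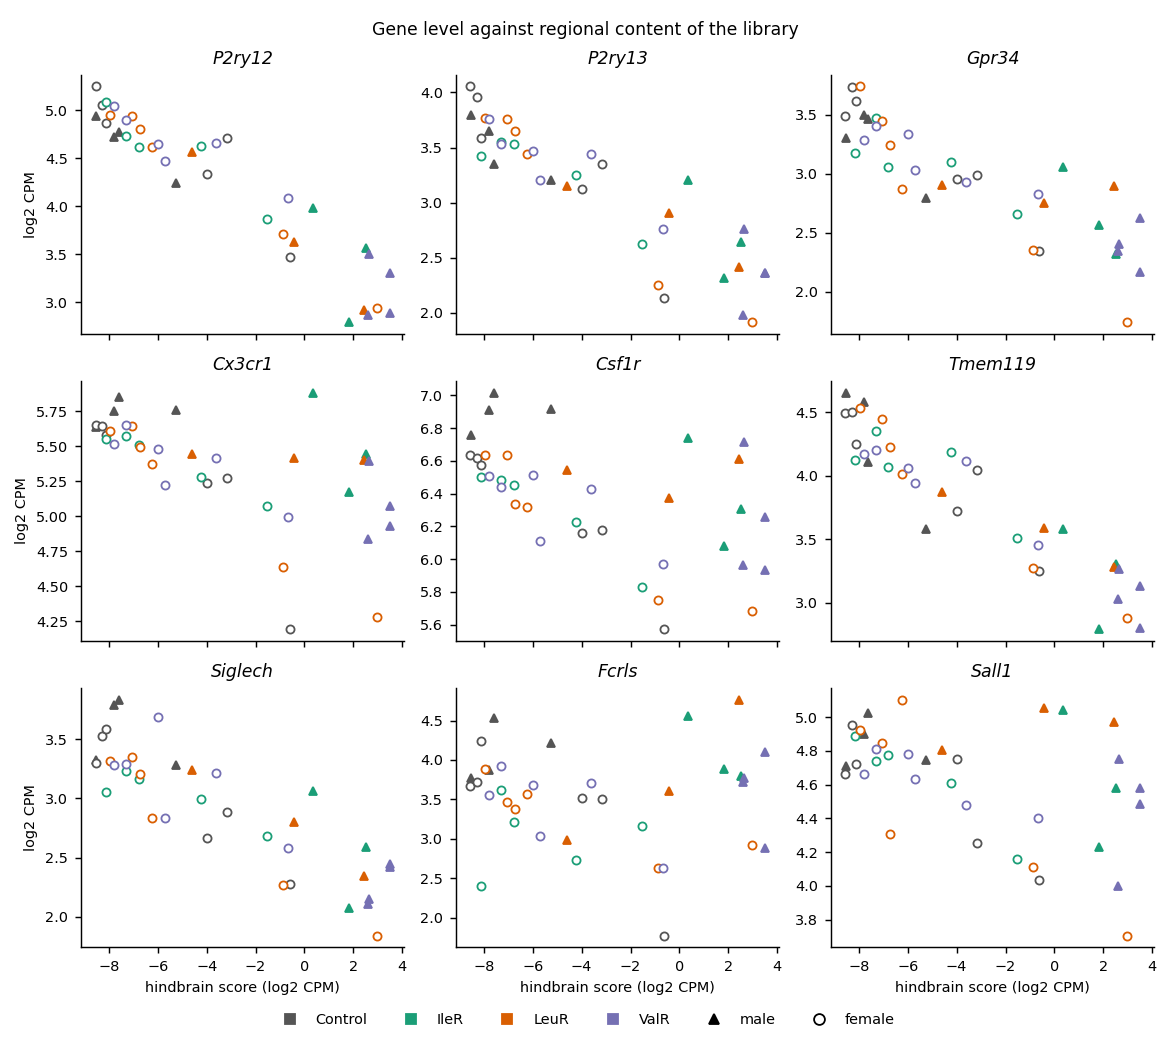
The level of each of the 9 genes in log2 CPM against the hindbrain score of the library, with points coloured by diet, filled triangles for males and open circles for females. In females 8 genes follow the score with r between -0.94 and -0.85 and Fcrls with r of -0.59, and the male Control libraries, at scores of -5.26 and below, lie at lower scores than all male restricted libraries.

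The size of the male differences was set beside the female slope, a description chosen after seeing the data. The mean male score rose from Control by 8.85 units in IleR, 6.44 in LeuR and 10.4 in ValR. Multiplied by the female slope, the ValR rise gives -1.31 for Siglech beside a measured male log2 difference of -1.31, -1.34 beside -1.24 for Tmem119, -1.70 beside -1.53 for P2ry12 and -1.20 beside -0.68 for Cx3cr1. The product lay within the 95% interval of the male log2 difference for 5 of the 9 genes in ValR, 4 in IleR and 7 in LeuR. In ValR it lay outside for P2ry13, Gpr34, Cx3cr1 and Sall1. With the 95% interval of the slope, these products ran from -2.09 to -1.39, -1.76 to -1.12, -1.46 to -0.95 and -1.26 to -0.68. The male intervals were -1.66 to -0.62, -1.34 to -0.48, -0.99 to -0.37 and -0.75 to 0.01, and overlapped them for each gene. The intervals did not overlap for Cx3cr1 in IleR and Sall1 in LeuR. The male difference was less negative than the product for 9 of 9 genes in each diet. These are not separate comparisons, since the products of a diet share the same score rise and the diets share the Control libraries. Of the female libraries, LeuR 45 alone, at 2.97, had a score in the range of the IleR and ValR males, 0.35 to 3.49.

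**Figure D4:**
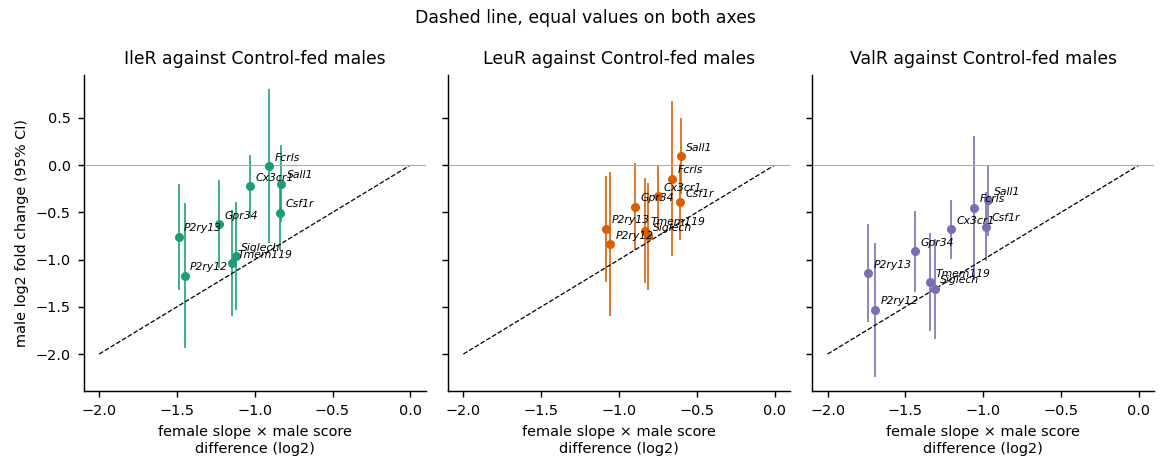
The measured male log2 difference from Control, with its 95% interval, against the product of the female slope and the rise of the mean male hindbrain score, for each of the 9 genes and each restricted diet, a panel for each diet. The dashed line marks equal values, and the points lie on or above it, nearest for Siglech in ValR at -1.31 and -1.31.

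With the hindbrain score as a covariate, 0 of the 9 genes were called in any male diet by edgeR, with 0 members at an unadjusted p under 0.05 in IleR, 1 in LeuR and 1 in ValR. Of the 22197 genes tested, the same fit called 3 in IleR, 11 in LeuR and 0 in ValR, and 1440, 1691 and 1583 had an unadjusted p under 0.05. The log2 difference in ValR was then 0.88 for P2ry12 (SE 0.52), -0.03 for Siglech (SE 0.55), 0.21 for P2ry13 (SE 0.53), 0.20 for Tmem119 (SE 0.52), -0.29 for Gpr34 (SE 0.52), -0.35 for Sall1 (SE 0.49), -0.44 for Cx3cr1 (SE 0.39) and -0.50 for Csf1r (SE 0.46). That of Fcrls became more negative, from -0.45 to -2.22 in ValR (SE 0.84, adjusted p = 0.686), from -0.01 to -1.48 in IleR and from -0.14 to -1.40 in LeuR. The standard errors were wider than without the score, which does not overlap between Control and restricted males.

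The 9 genes varied together in females. With the mean of each diet removed, the 36 pairs had a median r of 0.92 over the 23 female libraries, from 0.55 for the least alike pair to 0.98. Fcrls had a median r of 0.70 with the others and Sall1 0.81, while the other 7 genes had medians from 0.92 to 0.95. Over the 14 male libraries the median was 0.47 and the pairs ran from -0.49 to 0.94, with a median of 0.08 for Fcrls. These correlations share library, depth and regional content, and are given as a description.

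The 10 genes whose female pattern was most like the mean of the 9, by Pearson's r over 23 libraries with the diet means removed and among the 13879 genes whose mean log2 CPM reached 1, were Plppr4 (r = 0.97), Neto1, Rap2b, Shisa7, Plk2, Dbn1, Rab40b, Klf16, Erf and Btg3 (r = 0.96). None of the 10 is on the microglia lists used here, and Neto1 and Shisa7 encode auxiliary subunits of neurotransmitter receptors and Dbn1 an actin-binding protein of dendritic spines. Over the 14 male libraries the r of the same genes ran from 0.15 for Plppr4 to 0.87 for Rap2b.

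The ligands of the receptors were taken next, from a list of 6 ligands and cofactors. Il34, which encodes a neuronal ligand of Csf1r, was at 53.0, 42.4, 30.3 and 35.9 CPM in the male Control libraries, 11.7, 10.4 and 9.18 CPM in IleR, 11.2, 15.8 and 23.3 CPM in LeuR and 8.85, 11.1, 5.78 and 8.16 CPM in ValR. It fell in all 3 diets without overlap, with a log2 difference of -2.25 in ValR (edgeR adjusted p = 0.00012), -1.95 in IleR (adjusted p = 0.0011) and -1.27 in LeuR (adjusted p = 0.0124). Cx3cl1, which encodes fractalkine, the neuronal ligand of Cx3cr1, ranged from 315 to 668 CPM in male Control and from 79.3 to 261 CPM in the restricted males. It fell in all 3 diets, with a log2 difference of -2.34 in ValR (adjusted p = 0.000136), -2.08 in IleR (adjusted p = 0.00124) and -1.54 in LeuR (adjusted p = 0.00876). The other 4 of the list did not pass, with log2 differences in ValR of 0.32 for Csf1, another ligand of Csf1r, and 0.20 for Tgfb1, whose product maintains the homeostatic state. Beside these, 12.4% of all genes were called lower in ValR, 8.68% in IleR and 6.33% in LeuR, and 13.6%, 14.5% and 9.48% lay below Control without overlap. In females Il34 and Cx3cl1 had slopes of -0.19 and -0.24 on the hindbrain score (adjusted p = 1.68e-06 and 8.07e-09), with 23.9% of all genes called in this direction.

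Of 18 other homeostatic microglia genes, 6 fell and 1 rose in ValR-fed males, 4 fell and 1 rose in IleR and 2 fell and 1 rose in LeuR, with median log2 differences of -0.48, -0.23 and -0.05. Of all genes tested, 12.4%, 8.68% and 6.33% were called lower in these diets and 11.1%, 6.63% and 3.81% higher. Crybb1, a crystallin gene expressed in microglia, fell in all 3 diets, with a log2 difference of -2.23 in ValR (edgeR adjusted p = 0.000301). Selplg, which encodes a selectin ligand, fell in ValR with a log2 difference of -1.02 (adjusted p = 0.00169), and the integrin gene Itgb5 rose in ValR by 0.59 on the log2 scale (adjusted p = 0.0111). Golm1, a Golgi membrane protein gene, did not pass, at 0.57 (adjusted p = 0.0855). On the female slope, 10 of the 18 were called lower and 3 higher with the score, Itgb5 among the higher, beside 23.9% and 22.0% of all genes, and in females 0 were called between a restricted diet and Control. Of 8 microglial transcription factors, 2 fell in each male diet, Mef2c with a log2 difference of -3.85 and Smad3 with -1.08 in ValR (adjusted p = 0.000122 and 0.0187), and both are also expressed in neurons. The medians of this list were -0.41 in ValR, -0.21 in IleR and -0.27 in LeuR.

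Genes shared by myeloid cells in general gave other values in males. Of 15 pan-myeloid genes, edgeR called 0 in each male diet. Of all genes, 12.4%, 8.68% and 6.33% were called lower in ValR, IleR and LeuR, and 11.1%, 6.63% and 3.81% higher. The median log2 difference of the 15 genes was -0.18 in ValR, 0.13 in IleR and 0.23 in LeuR. Their summed level was 275 to 405 CPM in male Control, 353 to 503 CPM in IleR, 289 to 589 CPM in LeuR and 246 to 456 CPM in ValR, so that the groups overlapped, and 0 of the 15 were at 0 in all male libraries. Aif1, which encodes the microglial stain marker IBA-1, was at a mean of 2.63 ± 0.51 CPM in male Control (SD, n = 4) and 2.21 ± 0.78 CPM in ValR (SD, n = 4), with a log2 difference of -0.25 (adjusted p = 0.557). The mean log2 CPM of the 9 homeostatic genes minus that of the 15 pan-myeloid genes was 0.04 to 0.89 in male Control, -0.47 to -0.18 in IleR, -0.86 to 0.37 in LeuR and -0.58 to 0.00 in ValR, so that the IleR and ValR libraries were below Control, ValR 10 and Control 4 being the closest pair at 0.00 and 0.04. In females it was 0.57 to 1.01 in Control, 0.53 to 0.96 in IleR, -0.10 to 1.04 in LeuR and 0.39 to 1.06 in ValR. With the pan-myeloid mean as a covariate, which was added after seeing the data, the same 7 genes were called in ValR-fed males, at log2 differences from -1.56 for P2ry12 to -0.61 for Csf1r, 3 in IleR (Csf1r, Siglech and Tmem119) and 1 in LeuR (Csf1r). That fit called 14.5% of all genes lower in ValR, 9.34% in IleR and 5.99% in LeuR. The female slope on the hindbrain score was called lower for 11 of the 15 pan-myeloid genes, Aif1 among them at -0.08, beside 23.9% of all genes.

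**Figure D5:**
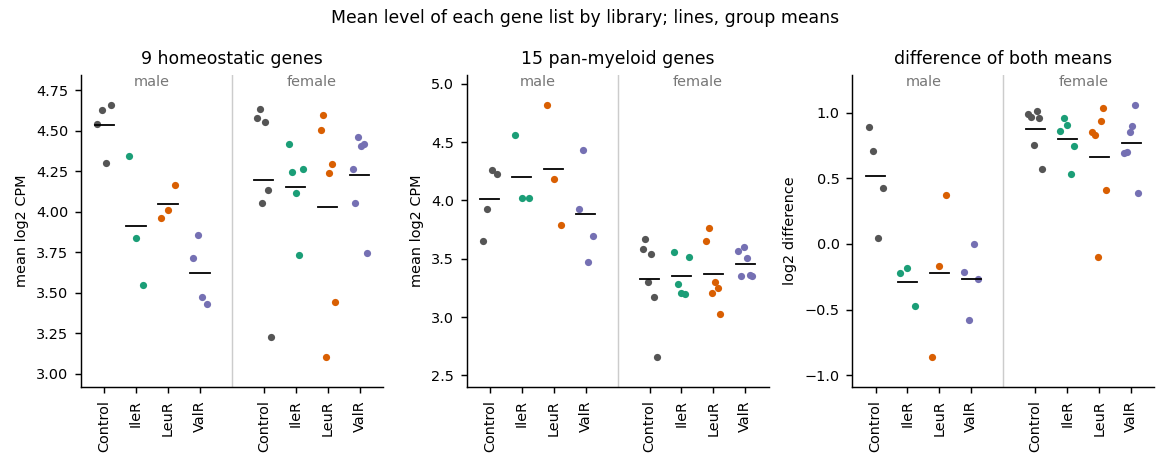
The mean log2 CPM of the 9 homeostatic genes, that of the 15 pan-myeloid genes and the difference of both means in every library, by diet and sex. Points are libraries and lines are group means. The difference is 0.04 to 0.89 in Control males, -0.47 to -0.18 in IleR and -0.58 to 0.00 in ValR males, and the pan-myeloid means of the male groups overlap.

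Of 19 disease-associated microglia genes, 3 rose and 1 fell in ValR-fed males, 5 rose in IleR and 3 rose in LeuR, with medians of 0.43, 0.69 and 0.60, beside 11.1%, 6.63% and 3.81% of all genes called higher. Spp1, which encodes osteopontin, rose by 2.15 on the log2 scale in ValR (edgeR adjusted p = 0.0192) and Gpnmb, a lysosomal glycoprotein gene, by 2.65 (adjusted p = 0.00584), and both also rose in IleR and LeuR. Lpl, which encodes lipoprotein lipase, fell by 1.21 on the log2 scale in ValR (adjusted p = 0.0134). In females 0 of the 19 were called between diets, while the slope on the hindbrain score was higher for 5, Spp1 among them at 0.30, and lower for Lpl at -0.23, beside 22.0% of all genes called higher and 23.9% lower. Spp1 is also expressed by neurons of the brainstem, and its part in the list's counts was not tested.

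Markers of other cells moved as follows in males. Of 10 border-associated macrophage markers, 1 fell in each diet, the scavenger receptor gene Stab1, with a log2 difference of -1.26 in ValR (edgeR adjusted p = 0.000601), and their summed level was 28.4 to 68.2 CPM in Control and 15.3 to 30.4 CPM in ValR. Of all genes, 12.4% were called lower in ValR, 8.68% in IleR and 6.33% in LeuR, and 11.1%, 6.63% and 3.81% higher. Of 8 monocyte and granulocyte markers, 2 rose in LeuR, S100a8 and S100a9, and 0 were called in IleR or ValR. That rise was carried by LeuR 19, where the summed level of the 8 was 291 CPM, beside 6.92 CPM in LeuR 20, 4.06 CPM in LeuR 21 and 1.84 to 12.2 CPM in male Control. Without LeuR 19 the log2 difference fell from 4.98 to 0.14 for S100a8 (adjusted p = 0.971) and from 5.05 to 0.08 for S100a9 (adjusted p = 0.985). Of 12 cerebellum, 14 brainstem and spinal cord and 16 forebrain genes in ValR, 11 and 10 rose and 14 fell. Of 10 genes each, 1 pan-neuronal gene rose and 3 fell in ValR, 4 astrocyte genes rose and 1 fell, and 0 of the oligodendrocyte, endothelial and choroid plexus genes were called, nor any of 5 blood genes. In females 0 genes of any list were called between a restricted diet and Control. Not all were tested there, with 7 of 14 brainstem and spinal cord genes, 4 of 8 monocyte and granulocyte and 9 of 10 border-associated macrophage markers passing the filter. With the oligodendrocyte mean as a covariate edgeR called 8 of the 9 genes in ValR-fed males, 1 in IleR (Csf1r) and 0 in LeuR, beside 10.1%, 5.49% and 2.02% of all genes called lower in that fit. The part of the other cells named here in the values of the 9 genes was not tested.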

How the data were processed

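RNA from brain, per the methods the left hemisphere, was sequenced in 14 male and 23 female libraries. PolyA RNA is named in the labels and total RNA in the methods, and the extract protocol in the labels names another organ. The authors deposited expected counts per Ensembl gene, made from reads aligned to GRCm38.p5 and not normalized, and per the methods removed clear outlier libraries after principal component analysis. The aligner and the counting settings are not given in the sources used here. The submitters' processing notes name R 3.4.3, edgeR and limma. The authors' tables of diet comparisons (log2 fold changes, p-values and adjusted p-values) were not used.

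After rounding to whole numbers, edgeR 4.0.16 in R 4.3.3 was used for all main tests, with DESeq2 1.42.0 and limma 3.58.1 (voom) as alternatives. A gene was tested where all libraries of 1 or more diets had a count of 1 or more. Each sex had its own model of the 4 diets, normalized by TMM and tested by quasi-likelihood in edgeR, and p-values were adjusted over all genes by the Benjamini-Hochberg method at 0.05. Diet by sex was tested in a joint model of 8 groups. CPM values use TMM-normalized library sizes, and log2 CPM a prior count of 2. Intervals are 95% intervals of the fit. Correlations were tested with 100000 permutations, two-sided. Replicate libraries differed by more than counting noise in each of 73 pairs. The scripts were tested on simulated data.

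The members, the 16 other gene lists, the scores and the tests were chosen with earlier results of these data known. The genes named are the 9 members, Aif1, the ligands Csf1, Il34, Cx3cl1 and Tgfb1, the 10 genes most like the members in females, and from each other list up to 2 genes of each direction with the smallest p in ValR-fed males, with regional genes given as scores. Genes named beside these, such as those of a count of 5 or fewer, were chosen after their values were seen. Promoter sequences are from RefSeq, GRCm38.p6.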

Additional observations from a re-analysis of the deposited data

Results flagged for a closer look

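The response of Siglech to ValR passed the test of a difference between the sexes, a call that did not hold in all fits. The male log2 difference from Control minus the female one was -1.40 (SE 0.38, edgeR adjusted p = 0.0361). The call was lost in 13 of the 37 fits that left out a library, limma voom called 0 of the 9 genes, and with the hindbrain score in the model the difference was -0.18, while that of the other 8 genes turned positive. Every male ValR library, at 4.21 to 5.33 CPM, was below every male Control library, at 9.61 to 14.1 CPM, while in females ValR, at 5.85 to 12.7 CPM, overlapped Control, at 4.72 to 11.8 CPM. The male groups also differed in the hindbrain score without overlap and the female groups did not. Of 54 sets of a gene and a group of at least 4 libraries, 0 held a library far from the others by Dixon's test.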

How the results depend on the processing

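The counts of 0 in the 3 female diets and 9 on the female slope were the same under the alternatives run. The count of 7 in ValR-fed males became 0 when the hindbrain score was a covariate and 8 when the oligodendrocyte score was, which added Sall1, and was 7 under the others. The 3 genes in IleR-fed males became 5 with DESeq2, 5 with limma voom, 0 with the hindbrain score, 1 with the oligodendrocyte score (Csf1r, none of the 3) and 1 with both sexes in 1 fit (Tmem119), and 0 to 6 when a library was left out. The 0 in LeuR-fed males became 1 with DESeq2, 1 with the pan-myeloid score, and 0 to 2 when a library was left out. The male slope was called for 0 genes with the oligodendrocyte score, 0 on a brainstem minus forebrain score, 7 without a diet term, and 0 to 1 when a library was left out. The diet by sex count of 1 in ValR became 3 with DESeq2, 0 with limma voom, 0 with the hindbrain score, and 0 to 3 when a library was left out. With that score the diet by sex difference in ValR turned positive for 8 of the 9 genes, Siglech (-0.18) being the exception, and the median went from -0.81 to 0.22, while in IleR and LeuR all 9 were positive, at medians of 0.45 and 0.36. With the hindbrain score, the male log2 difference turned positive, without passing the test, for P2ry12 (0.88), P2ry13 (0.39), Tmem119 (0.19) and Siglech (0.12) in IleR, for P2ry12 (0.88), P2ry13 (0.21) and Tmem119 (0.20) in ValR and for P2ry12 (0.52), Tmem119 (0.20) and P2ry13 (0.15) in LeuR. That of Fcrls became more negative, at -1.48, -2.22 and -1.40. The male score does not overlap between Control and the restricted diets, and beyond this the cause was not tested. Of 3249 values of single genes under alternatives, 3033 kept their direction and side of the threshold, 52 lost the call, 34 gained it, 6 of called genes changed direction, and 124 changed direction without a call in either fit. No paired analysis was possible because each library number occurs in a single group. Members with as few as 44 counts in a library, and 3 to 4 male libraries per diet, limit what could be detected.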
